A study of Mus musculus with 40 samples.

Results

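De novo lipogenesis is the synthesis of fatty acids from carbohydrate carbon, and 10 genes of this pathway were followed in mouse brown adipose tissue (BAT). They were chosen by symbol, with earlier results of these data known. They were the enzymes *Acly*, *Acaca*, *Acacb*, *Fasn*, *Scd1*, *Scd2* and *Me1* and the regulators *Srebf1*, *Mlxipl* and *Thrsp*. All 10 were found among the 20295 genes of the count table, and all 10 passed the filter on low counts that left 13277 genes for testing.

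In this pathway ATP-citrate lyase (*Acly*) splits cytosolic citrate into acetyl-CoA, acetyl-CoA carboxylases (*Acaca*, *Acacb*) make malonyl-CoA, and fatty acid synthase (*Fasn*) joins these units into palmitate with NADPH that malic enzyme (*Me1*) helps to supply. Stearoyl-CoA desaturases (*Scd1*, *Scd2*) then place a double bond into the saturated product. In BAT the pathway is known to be active on carbohydrate-rich diets and under insulin, through SREBP-1 (from *Srebf1*) and the glucose-sensing factor ChREBP (from *Mlxipl*), and to run beside fatty acid oxidation in stimulated tissue.

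The BAT came from 40 male mice housed at 29 °C, with 5 mice in each of 8 groups and poly(A) RNA sequenced from each mouse. In the uninjected cohort, 13 to 19 weeks old, C-3BO mice carried the *Gpr3* TTG allele, a CAG-driven *Gpr3* transgene targeted to the Rosa26 locus on a C57BL/6NTac background, switched on by *Ucp1*-Cre (line B6.FVB-Tg(*Ucp1*-cre)1Evdr/J), so that *Gpr3*, a receptor that signals through Gs without a ligand, is overexpressed in brown and beige adipocytes from early life. Their control littermates had either 1 copy of the TTG allele and no Cre or Cre and no TTG allele, and these kinds of control are not separated in the labels. In the injected cohort, 15-week-old mice labelled wildtype, which were control littermates of a tamoxifen-inducible *Gpr3* line, received daily injections over 9 days of the β3-adrenergic agonist CL-316,243 (CL) at 1 mg/kg or of saline at 10 uL/g. Each cohort was fed chow or, for 7 days, a high fat diet (HFD) with 60 kcal% fat, and on HFD the injections began 2 days before the diet. Diet was thus compared with chow in 4 settings (control, C-3BO, saline and CL mice), and the C-3BO genotype and CL were each compared with their own controls on both diets.

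Library totals lay between 849126 and 15260516 counts, and levels are given as CPM, counts scaled by library depth, where each total was first multiplied by its TMM factor from edgeR. The floor of 3 counts corresponded to 0.206 to 3.01 CPM, which covers counting error only and lay below every value of the 10 genes. The summed level of 8 brown adipocyte markers, including *Ucp1*, *Cidea* and *Adipoq*, was between 11769 and 32763 CPM in all libraries. A list of 9 liver transcripts summed to 84.2 to 269.9 CPM in the 10 libraries of injected mice on HFD and to as much as 409.1 CPM in HFD C-3BO mice (replicates 4 and 5), against at most 5.49 CPM in every other library, where *Ahsg* and *Fga* were at 0 in all chow control mice. A list of 6 epididymis transcripts summed to 9.02 to 63.2 CPM in the same libraries and to at most 0.978 CPM in the others. These 12 libraries were also those with the lowest totals, so that diet and this library property cannot be told apart in the injected cohort. A list of 8 skeletal muscle transcripts summed to 689.6 to 8837 CPM in chow control mice and to 4.89 to 185.5 CPM in HFD control mice, and its part in the diet differences in these mice was not tested. In bulk tissue, fewer cells of a type and less RNA per cell cannot be told apart.

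The promoter sequences of members are shown because the enzymes moved together with diet and because *Acacb* and *Thrsp* also moved with C-3BO or CL. RefSeq promoters of GRCm38.p6, 250 bases before to 50 after a start, were available for 12 starts of 8 members (all except *Scd1* and *Scd2*). The last 120 bases before the start are printed 5′ to 3′ on the strand of the gene, for *Fasn* at chr11:120824548-120824667 (minus strand), *Thrsp* at chr7:97417551-97417670 (minus strand), *Acacb* at chr5:114165398-114165517 (plus strand) and the upstream start of *Mlxipl* at chr5:135089770-135089889 (plus strand). Capitals mark CCAAT on either strand (a box known to bind NF-Y, a common partner of SREBP-1), CACGTG (an E-box, a kind of element that ChREBP binds in pairs) and GGGCGG on either strand (a GC box).
Fasn: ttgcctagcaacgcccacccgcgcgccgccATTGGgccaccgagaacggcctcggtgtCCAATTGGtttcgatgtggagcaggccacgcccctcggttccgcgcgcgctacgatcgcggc
Thrsp: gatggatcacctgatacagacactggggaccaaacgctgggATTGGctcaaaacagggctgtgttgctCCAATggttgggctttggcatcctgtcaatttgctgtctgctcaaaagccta
Acacb: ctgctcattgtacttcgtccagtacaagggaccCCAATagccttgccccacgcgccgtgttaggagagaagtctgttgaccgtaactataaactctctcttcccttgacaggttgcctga
Mlxipl: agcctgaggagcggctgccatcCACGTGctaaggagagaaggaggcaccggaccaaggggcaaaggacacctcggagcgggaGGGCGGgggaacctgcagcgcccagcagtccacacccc
In the whole windows around the starts, CCAAT was found in 8 of the 12 member promoters, against 37.4% of all 32851 promoters in the table. By gene it was found in 7 of the 8 members, some of which have more than 1 start, and no share by gene over all genes was taken. In *Fasn* the capitals run together where CCAAT on one strand overlaps CCAAT on the other. GGGCGG occurred in 5 of the 12 (35.7% of all promoters), CACGTG in 1 of the 12, that of the upstream start of *Mlxipl* (7.15% of all), and TCACCCCAC, the letters of a sterol regulatory element, in 0 of the 12 (0.551% of all). The other start of *Mlxipl* and the start of *Acaca*, which are not printed, held 0 matches of each of these motifs. Which *Mlxipl* start belongs to the counted transcript was not determined, so the printed window may not be its promoter. A match of letters is a description and not a measured binding site.

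On chow, *Scd1* held more counts than any other gene in 20 of 20 libraries and *Fasn* ranked second in each of them. The 10 genes together took 5.36 to 18.1% of the counts of a chow library and 1.37 to 6.03% of those of an HFD library, so that no HFD library except the highest exceeded the lowest chow library. On HFD, *Scd1* was still first in 16 of 20 libraries, while the rank of *Fasn* fell as far as 102, in a C-3BO mouse. Per kilobase of counted exon, mean levels in chow control mice were 14929 CPM for *Scd1*, 3331 CPM for *Thrsp*, 2626 CPM for *Fasn* and 1020.1 CPM for *Acly*. The other 6 genes lay between 124 CPM per kilobase (*Srebf1*) and 240.3 CPM per kilobase (*Me1*).

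**Figure D1:**
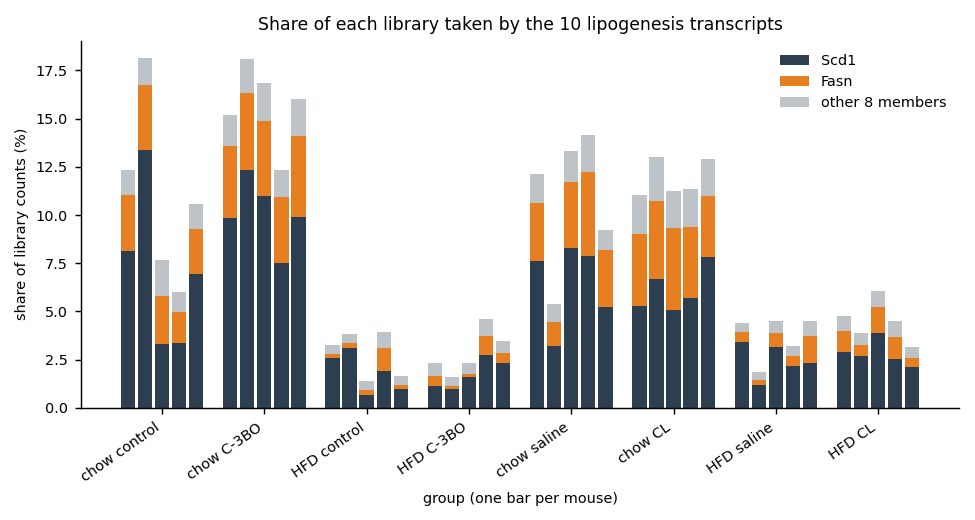
Share of library counts (%) taken by *Scd1*, *Fasn* and the other 8 lipogenesis genes, with 1 stacked bar for each of the 5 mice in each of the 8 groups. Chow libraries reach 5.36 to 18.1% and HFD libraries 1.37 to 6.03%, with *Scd1* as the tallest segment in every bar.

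HFD lowered most of the pathway in each of the 4 settings. At an edgeR adjusted p under 0.05, 9 of the 10 genes were lower on HFD in control mice (17.5% of all tested genes were lower), 8 of 10 in C-3BO mice (12.2%), 10 of 10 in saline mice (8.04%) and 9 of 10 in CL mice (12.7%). By edgeR and by DESeq2, 0 of 10 were higher in any setting at this threshold, against 15.4%, 13.5%, 7.45% and 10.9% of all tested genes by edgeR. At an edgeR unadjusted p under 0.05, 0 of 10 were higher too, and the share of all genes was not taken there. The median log2 fold change of the 10 genes was -2.20 in control, -1.93 in C-3BO, -1.61 in saline and -1.40 in CL mice, where the median of all tested genes lay between -0.01 and 0.03. With the added demand of a log2 fold change beyond 1, 7, 7, 9 and 8 of the 10 genes were lower. All 5 HFD mice lay below all 5 chow mice for 6 of the 10 genes in control mice (9.44% of all tested genes), 7 in C-3BO mice (7.53%), 6 in saline mice (4.94%) and 9 in CL mice (9.84%).

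The liver and muscle lists differed between diets in different settings. In HFD control mice the 9 liver transcripts summed to at most 2.66 CPM, but the muscle list was lower on HFD. In C-3BO mice the muscle list summed to 348.6 to 3400 CPM on chow and 4.89 to 64.7 CPM on HFD. In CL mice it summed to 10.5 to 126.9 CPM on chow and 27.9 to 604.1 CPM on HFD. The liver list of CL mice summed to at most 5.22 CPM on chow and to 133.3 to 269.9 CPM on HFD. In saline mice the muscle list summed to 9.74 to 2298 CPM on chow and 17.0 to 1788 CPM on HFD. Their liver list summed to at most 5.48 CPM on chow and to 84.2 to 244.2 CPM on HFD. Other lists moved with diet as well. The 8 brown adipocyte markers summed to 18843 to 27081 CPM in chow C-3BO and 28279 to 32763 CPM in HFD C-3BO mice. This sum overlapped between diets in control, saline and CL mice. In control mice the medians of *Ucp1* (1256 and 4544 CPM), *Fabp4*, *Plin1* and *Dio2* were higher on HFD. Those of *Adipoq*, *Cidea*, *Cox7a1* and *Ppargc1a* were lower. The 3 endothelial markers summed to 615.2 to 949.97 CPM in chow control and 1244 to 1609 CPM in HFD control mice, and were higher on HFD without overlap in the other 3 settings too. The 5 white adipocyte markers summed to 91.98 to 304.5 CPM in chow control and 169.3 to 875.7 CPM in HFD control mice. Of these only *Lep* was higher on HFD (medians 162 and 496 CPM). *Hoxc8* (12.8 and 5.25 CPM) and *Slc7a10* (8.17 and 7.07 CPM) were lower, and *Hoxc9* and *Hoxc10* had medians of at most 0.413 CPM. The 5 macrophage markers summed to 106.9 to 241.8 CPM in chow saline and 249.6 to 634.6 CPM in HFD saline mice. The part of any of these lists in the decrease was not tested.

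**Figure D2:**
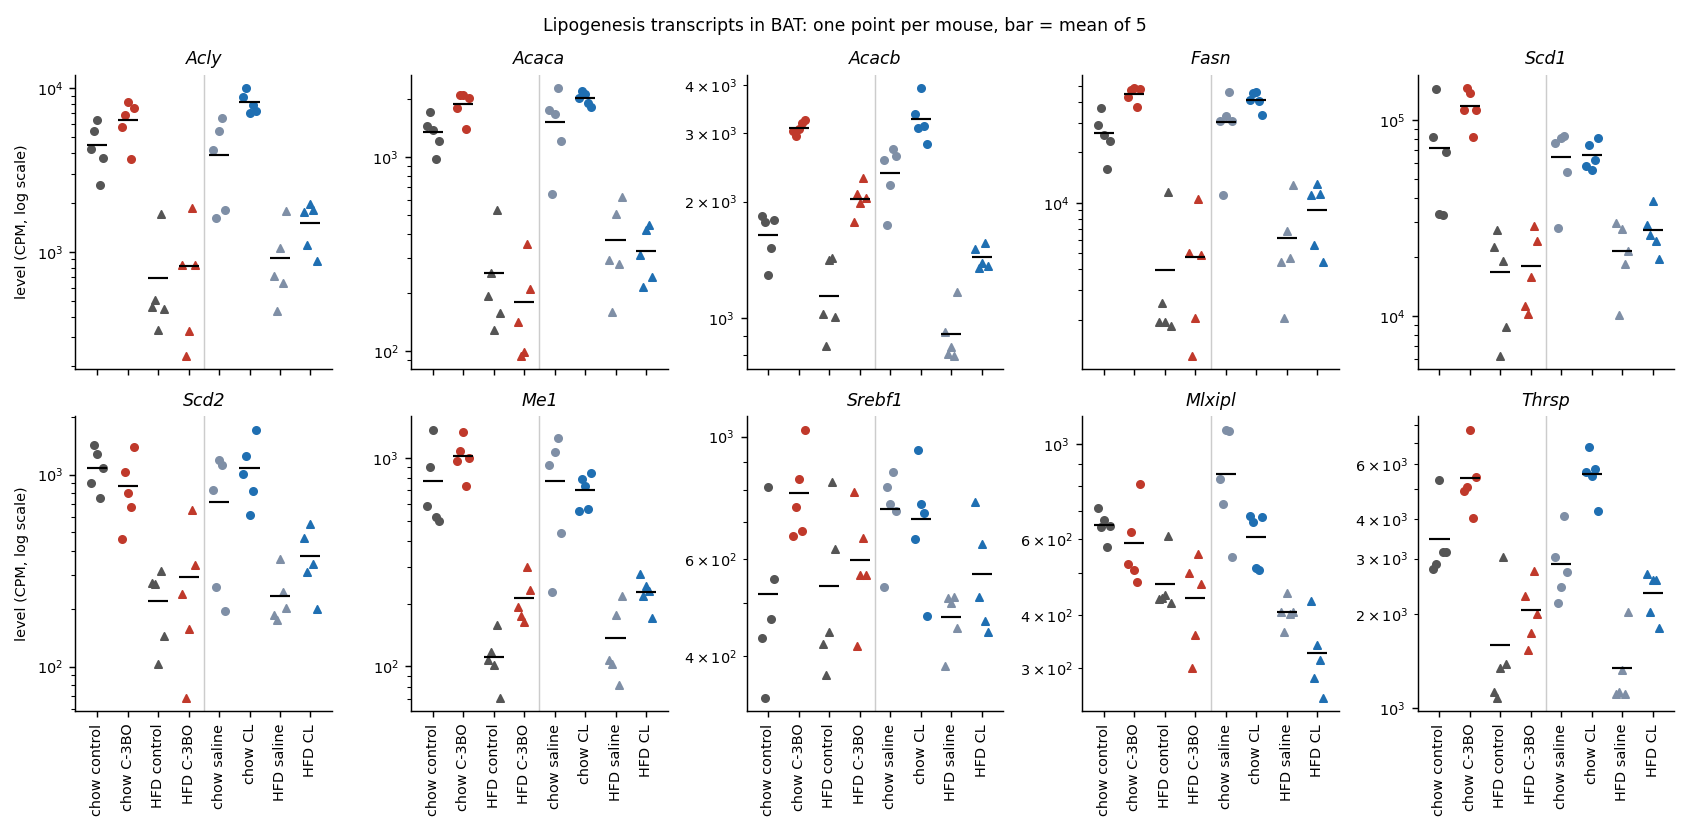
Level of each of the 10 genes (CPM, log axis) in the 8 groups, with 1 point per mouse (circles chow, triangles HFD) and a bar at the mean of 5. The HFD points of the enzymes lie below most or all chow points in both cohorts, whereas those of *Srebf1* overlap with chow in 3 of the 4 settings.

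*Fasn* (NM_007988, mm9 chromosome 11, 120667272 to 120685861, minus strand) encodes the multi-enzyme that makes palmitate. In control mice its level was 29182, 36663, 25258, 16018 and 23373 CPM on chow and 1925, 2506, 1940.0, 11599 and 1823 CPM on HFD. In C-3BO mice it was 42839, 47439, 48577, 37399 and 47938 CPM on chow and 5035, 1214, 2051, 10484 and 4899 CPM on HFD. In both genotypes every HFD mouse lay below every chow mouse, although replicate 4 of each HFD group was well above the others of its group. HFD control replicate 4 was the highest mouse of its group for 9 of the 10 genes, all except *Scd1*, and without it 9 of 10 genes were still lower on HFD in control mice. The decrease was 6.59-fold in control mice (log2 fold change -2.72, standard error 0.50, edgeR adjusted p = 4.54e-05) and 9.47-fold in C-3BO mice (log2 fold change -3.24, standard error 0.51, edgeR adjusted p = 1.12e-05).

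In the injected cohort *Fasn* was 30732, 11113, 33113, 46168 and 30748 CPM with saline on chow and 4435, 2053, 6792, 4674 and 12805 CPM with saline on HFD. With CL it was 41354, 45266, 46236, 40763 and 33285 CPM on chow and 11127, 5590.2, 13025, 11296 and 4416 CPM on HFD. Chow saline replicate 2 was low and fell within the HFD saline range, whereas the CL groups did not overlap. Both decreases passed the test (saline log2 fold change -2.30, standard error 0.49, edgeR adjusted p = 0.00126; CL log2 fold change -2.19, standard error 0.49, edgeR adjusted p = 0.00103).

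*Acly* (NM_134037, chromosome 11, 100337666 to 100389314, minus strand), which supplies cytosolic acetyl-CoA, was also lower on HFD. It was 4259, 5458, 6402, 2569 and 3739.8 CPM in chow control and 464, 506, 335, 1699 and 445 CPM in HFD control mice, again with replicate 4 highest on HFD and no overlap. In C-3BO mice the ranges were 3710.4 to 8208 CPM on chow and 232 to 1854 CPM on HFD. The log2 fold change was -2.70 in control mice (edgeR adjusted p = 1.91e-05), -2.98 in C-3BO, -2.09 in saline and -2.45 in CL mice, with edgeR adjusted p of at most 0.00157. Only the saline groups overlapped among the 4 settings, since replicate 2 of chow saline stood at 1611 CPM beside an HFD saline maximum of 1763 CPM, and replicate 5 of chow saline lay just above that maximum at 1793 CPM.

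The cytosolic carboxylase *Acaca* (NM_133360, chromosome 11, 84008940 to 84215153, plus strand), whose malonyl-CoA feeds fatty acid synthase, had the larger decrease in control mice beside the mitochondrion-associated *Acacb* (NM_133904, chromosome 5, 114615527 to 114700767, plus strand), whose malonyl-CoA is known to restrain fatty acid entry into mitochondria. *Acaca* was 1442, 1698, 1383, 976 and 1209.9 CPM in chow control mice and 193, 252, 128, 534 and 157 CPM in HFD control mice. *Acacb* was 1835, 1768, 1294, 1517 and 1794 CPM in chow control mice and 1026, 846, 1409.8, 1428 and 1007 CPM in HFD control mice. The *Acaca* groups were apart, while HFD replicates 3 and 4 of *Acacb* reached into the chow range. The decrease was 5.31-fold for *Acaca* (log2 fold change -2.41, standard error 0.36, edgeR adjusted p = 2.29e-06) and 1.44-fold for *Acacb* (log2 fold change -0.52, standard error 0.13, edgeR adjusted p = 0.00179).

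In C-3BO mice *Acaca* was 1788, 2078, 2086, 1401 and 2009 CPM on chow and 142, 94.4, 99.1, 354 and 209.9 CPM on HFD, the group with the lowest mean of this gene (log2 fold change -3.38, standard error 0.37, edgeR adjusted p = 2.76e-08). *Acacb* was 3039, 2963, 3074, 3192 and 3243 CPM on chow and 1769.8, 2093, 1983, 2296 and 2043 CPM on HFD (log2 fold change -0.61, standard error 0.13, edgeR adjusted p = 0.00061). Neither gene overlapped between diets. With saline, *Acacb* was 2562, 1739.9, 2209.6, 2743 and 2626 CPM on chow and 918, 809, 839, 798 and 1169.7 CPM on HFD (log2 fold change -1.39, standard error 0.13, edgeR adjusted p = 9.02e-09), and with CL it was 3361, 3097, 3935, 3139 and 2818 CPM on chow and 1507, 1350.1, 1391, 1566 and 1359 CPM on HFD (log2 fold change -1.19, standard error 0.13, edgeR adjusted p = 4.68e-08). Both injected comparisons were apart for *Acacb*. *Acaca* fell there too, with log2 fold changes of -2.01 with saline (edgeR adjusted p = 0.000195) and -2.62 with CL (edgeR adjusted p = 2.57e-06).

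The ratio of *Acacb* to *Acaca*, as CPM per kilobase, was also followed in each mouse. It is made of the same values as the changes above, so its tests are no separate support for them. In control mice it was 1.35, 1.11, 0.996, 1.65 and 1.58 on chow and 5.67, 3.57, 11.7, 2.85 and 6.84 on HFD. In C-3BO mice it was 1.81, 1.52, 1.57, 2.43 and 1.72 on chow and 13.3, 23.6, 21.3, 6.89 and 10.4 on HFD. All HFD mice lay above all chow mice in each genotype, with mean log2 differences of 2.04 and 2.94 (exact permutation test, two-sided, p = 0.00794 for each, the smallest that 5 mice against 5 allow, adjusted p = 0.0423 over 16 ratio tests). With CL the difference was 1.49 (exact permutation p = 0.00794, adjusted p = 0.0423), and with saline it was 0.67 with overlap (exact permutation p = 0.111, adjusted p = 0.178). On HFD the ratio was 1.34 log2 units higher in C-3BO than in control mice, which did not pass the adjustment (exact permutation p = 0.0317, adjusted p = 0.102).

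**Figure D3:**
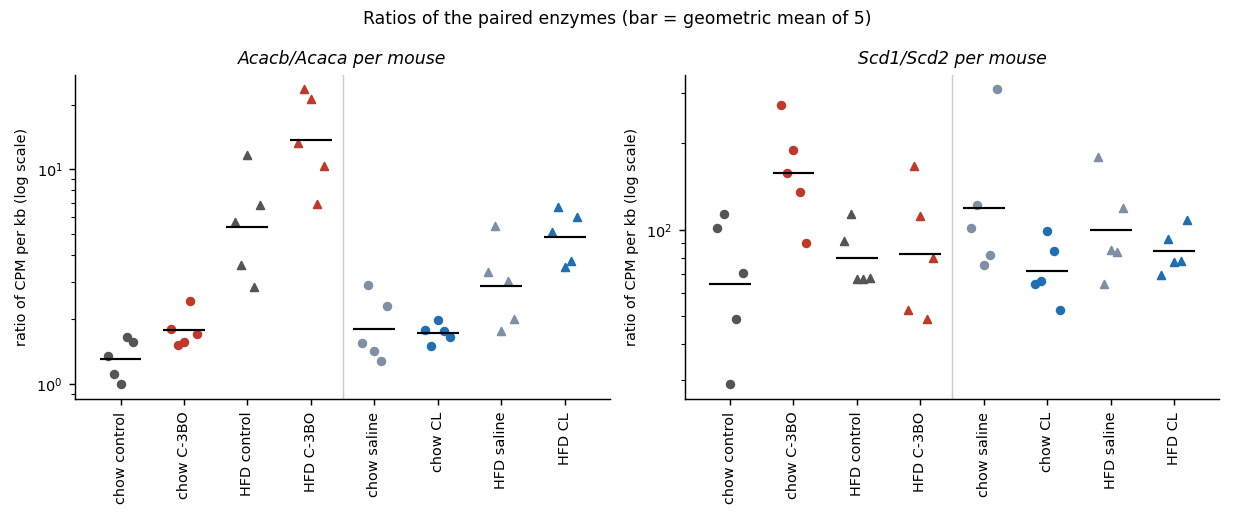
Ratios of CPM per kilobase (log axis) of *Acacb* to *Acaca* and of *Scd1* to *Scd2* in each mouse, with a bar at the geometric mean of 5. The *Acacb*/*Acaca* ratio lies between 0.996 and 2.89 in all chow mice and between 1.76 and 23.6 in HFD mice, while the *Scd1*/*Scd2* ratio overlaps between diets in every setting.

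*Scd1* (NM_009127, chromosome 19, 44468940 to 44482199, minus strand), the main adipose desaturase, was 81743, 144527, 33133, 32887 and 68758 CPM in chow control and 22350.1, 27327, 6244, 19051 and 8775 CPM in HFD control mice. It was 112619, 145612, 137715, 81994 and 112938 CPM in chow C-3BO and 11208, 10277, 15787, 28690.3 and 24112 CPM in HFD C-3BO mice. The diets were apart in both genotypes, but chow control replicates 3 and 4 lay close above the highest HFD control mouse. The decrease was 4.31-fold in control mice (log2 fold change -2.11, standard error 0.38, edgeR adjusted p = 3.29e-05) and 6.56-fold in C-3BO mice (log2 fold change -2.71, standard error 0.38, edgeR adjusted p = 2.49e-06). In the injected cohort it was smaller in size, at -1.59 with saline (edgeR adjusted p = 0.00316), where replicate 2 on chow fell within the HFD range, and -1.28 with CL (edgeR adjusted p = 0.00948), where the groups were apart.

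*Scd2* (NM_009128, chromosome 19, 44368166 to 44381352, plus strand), a neighbouring desaturase gene of similar sequence, spanned 752 to 1423 CPM in chow control and 103 to 316 CPM in HFD control mice, with no overlap (log2 fold change -2.30, standard error 0.45, edgeR adjusted p = 0.000119). In C-3BO mice it spanned 462 to 1395 CPM on chow and 68.9 to 655 CPM on HFD, which overlapped (log2 fold change -1.59, standard error 0.44, edgeR adjusted p = 0.00679). The log2 fold changes in saline and CL mice were -1.63 and -1.53 (edgeR adjusted p = 0.0102 and 0.00948). The ratio of *Scd1* to *Scd2* passed the adjustment in 0 of its 8 comparisons by the exact permutation test (1 of 8 at an unadjusted p under 0.05), the lowest adjusted p being 0.0952 for C-3BO against control mice on chow (log2 difference 1.29). How reads shared by the Scd genes were assigned is not given in the sources used here, so the split between these paralogs is uncertain.

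*Me1* (NM_008615, chromosome 9, 86474970 to 86589947, minus strand) yields cytosolic NADPH. It was 587, 906, 1363, 522 and 499 CPM in chow control and 107, 117, 102, 158 and 70.8 CPM in HFD control mice. In C-3BO mice it was 970.3, 1084, 1335, 735 and 1001 CPM on chow and 192, 175, 164, 299 and 233 CPM on HFD. The diets were apart in all 4 settings. Log2 fold changes were -2.80 in control (edgeR adjusted p = 4.19e-08), -2.27 in C-3BO, -2.49 in saline and -1.61 in CL mice (edgeR adjusted p of at most 0.000219).

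*Thrsp* (NM_009381, chromosome 7, 104561467 to 104566020, minus strand) encodes Spot14, a small nuclear and cytosolic protein linked to lipogenic gene activity. It was 2783, 2888, 5335, 3140.0 and 3141 CPM in chow control and 1124, 1081, 1343, 3034 and 1386 CPM in HFD control mice. In C-3BO mice it was 4907, 5059, 7711, 4029 and 5444 CPM on chow and 2279.7, 1535, 1735, 2738 and 1995 CPM on HFD. HFD control replicate 4 reached into the chow control range, and the C-3BO groups were apart. *Thrsp* fell in all 4 settings, with log2 fold changes between -1.40 (C-3BO) and -1.11 (saline) and edgeR adjusted p of at most 0.00123.

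The transcription factor genes had smaller log2 fold changes than any of the 7 enzymes in each setting, a difference that was not tested. *Srebf1* (NM_011480, chromosome 11, 60012591 to 60034106, minus strand) was 431, 337, 809.8, 467 and 552 CPM in chow control and 421, 369.7, 443, 827 and 625 CPM in HFD control mice, which overlapped widely. Its diet log2 fold change was 0.05 in control mice (95% interval -0.37 to 0.47, edgeR adjusted p = 0.886), -0.40 in C-3BO mice (edgeR adjusted p = 0.159) and -0.33 in CL mice (edgeR adjusted p = 0.257). With saline it was 533, 811, 756, 864 and 734 CPM on chow and 385, 511, 499.6, 513 and 451 CPM on HFD, without overlap (log2 fold change -0.65, standard error 0.21, edgeR adjusted p = 0.0299). That call was lost without any of chow saline replicates 2, 3 or 4 or HFD saline replicates 1 or 5 (edgeR adjusted p 0.0513 to 0.0933).

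*Mlxipl* (NM_021455, chromosome 5, 135582761 to 135614252, plus strand) was 832, 726, 1082, 1077 and 545 CPM with saline on chow and 406, 364, 451, 402 and 406 CPM with saline on HFD. The saline groups were apart, as were those of CL mice (511 to 679.9 CPM on chow, 256 to 430.5 CPM on HFD). The decreases were 2.10-fold with saline (log2 fold change -1.07, standard error 0.17, edgeR adjusted p = 3.99e-05) and 1.87-fold with CL (log2 fold change -0.90, standard error 0.17, edgeR adjusted p = 0.000125). In control mice the change was -0.46 (edgeR adjusted p = 0.0281), a call that was lost without chow control replicate 1 or HFD control replicate 1, 2, 3 or 5 (edgeR adjusted p 0.0582 to 0.0660). In C-3BO mice it was -0.43 and did not pass (edgeR adjusted p = 0.0506), but passed without chow C-3BO replicate 3 or 4 or HFD C-3BO replicate 1 or 4 (edgeR adjusted p 0.0186 to 0.0453). Both genes have more than 1 start in the promoter table (3 for *Srebf1*, 2 for *Mlxipl*), and counts per gene do not separate the isoforms that begin there, such as SREBP-1a and SREBP-1c or ChREBPα and ChREBPβ.

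**Figure D4:**
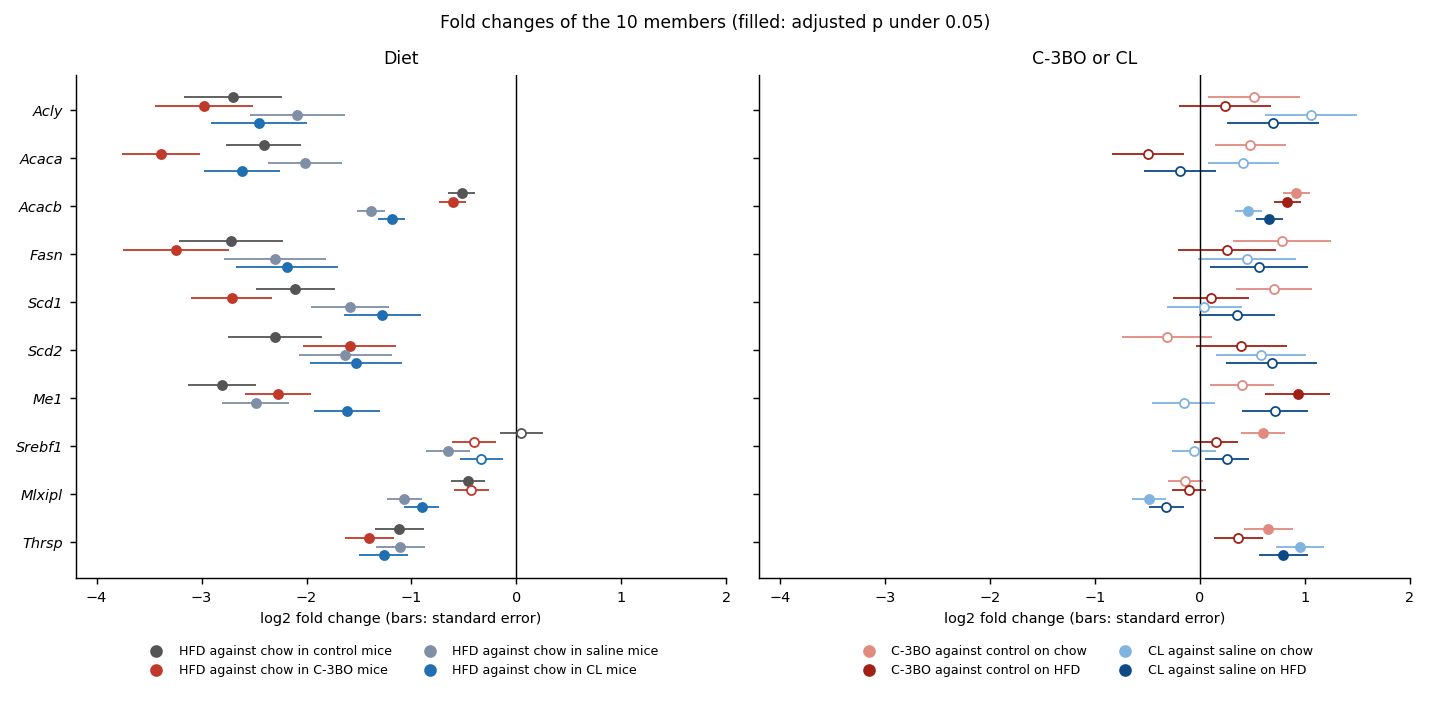
Log2 fold changes of the 10 genes with standard errors, for HFD against chow in 4 settings and for C-3BO or CL against their controls on each diet. Filled points have an edgeR adjusted p under 0.05, and the diet values reach -3.38 whereas the treatment values lie between -0.50 and 1.06.

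C-3BO and CL moved few of the 10 genes, and *Acacb* was higher in all 4 of these comparisons. At an edgeR adjusted p under 0.05, C-3BO mice had 3 genes higher on chow (*Acacb*, *Srebf1* and *Thrsp*, where 15.8% of all tested genes were higher) and 2 on HFD (*Acacb* and *Me1*, 19.3%). With C-3BO 0 were lower on either diet by edgeR or DESeq2 with all libraries, against 15.9% and 15.5% of all tested genes by edgeR. Without HFD C-3BO replicates 4 and 5, *Acaca* was lower with C-3BO on HFD (log2 fold change -1.18, edgeR adjusted p = 0.0190). CL raised 2 genes on chow (*Acacb* and *Thrsp*, 9.16%) and lowered 1 (*Mlxipl*, 6.13% of all tested genes). On HFD CL raised the same 2 genes (12.7%) with 0 lower by edgeR (10.8%) or DESeq2. Under other edgeR settings *Mlxipl* was lower with CL on HFD. Its log2 fold change was -0.47 with library totals alone (edgeR adjusted p = 0.0234) and -0.34 with only the compared libraries (edgeR adjusted p = 0.0381). At an edgeR unadjusted p under 0.05, 0 were lower in the 3 comparisons that had no lower call with all libraries and TMM factors. The share of all genes was not taken there. All shares given are those at the adjusted threshold. Counts of 2 or 3 among 10 genes are close to these background shares, and 0 of the calls in these counts had a log2 fold change beyond 1. These comparisons use the same chow and HFD mice as the diet comparisons. The summed brown adipocyte list was higher with C-3BO, at 11769 to 15820.0 CPM in chow control and 18843 to 27081 CPM in chow C-3BO mice. On HFD it summed to 13794 to 26681 CPM in control and 28279 to 32763 CPM in C-3BO mice. On chow the medians of *Ucp1* (1256 and 6390 CPM), *Fabp4* (6345 and 8956 CPM), *Plin1* and *Dio2* were higher with C-3BO. Those of *Adipoq* (1382 and 1023 CPM), *Cidea* (2585 and 2486 CPM), *Cox7a1* (321 and 318 CPM) and *Ppargc1a* (81.6 and 81.2 CPM) were lower. On HFD those of *Adipoq* and *Plin1* were lower and those of the other markers higher. With CL the summed list overlapped on chow (12380 to 17782 CPM with saline, 16371 to 24949 CPM with CL) and was apart on HFD (13377 to 16497 CPM and 21251 to 26756 CPM). With CL on chow the median of *Adipoq* was lower and those of all other brown adipocyte markers were higher. With CL on HFD the medians of *Adipoq* and *Plin1* were lower and those of the remaining markers higher. On HFD the endothelial markers were lower with C-3BO (1244 to 1609 CPM in control, 1023 to 1183 CPM in C-3BO mice) and higher with CL (987.8 to 1061 CPM with saline, 1126 to 1543 CPM with CL), without overlap. The part of these lists in the treatment differences was not tested.

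For *Acacb*, chow C-3BO mice lay at 2963 to 3243 CPM and chow control mice at 1294 to 1835 CPM, and HFD C-3BO mice at 1769.8 to 2296 CPM and HFD control mice at 846 to 1428 CPM. The groups were apart on both diets. The increase was 1.89-fold on chow (log2 fold change 0.92, standard error 0.13, edgeR adjusted p = 1.28e-06) and 1.78-fold on HFD (log2 fold change 0.83, standard error 0.13, edgeR adjusted p = 4.09e-06). CL raised *Acacb* 1.38-fold on chow (log2 fold change 0.46, standard error 0.13, edgeR adjusted p = 0.0124) and 1.58-fold on HFD (log2 fold change 0.66, standard error 0.13, edgeR adjusted p = 0.000251), again with groups apart. On chow the CL call was lost without chow saline replicate 2 (edgeR adjusted p = 0.0758) or chow CL replicate 3 (edgeR adjusted p = 0.0505). Non-overlap in the higher direction was found for 2, 2, 3 and 1 of the 10 genes in the 4 comparisons, against 10.4%, 11.4%, 5.88% and 9.67% of all tested genes.

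*Thrsp* with CL was 5639, 6788, 5491, 5776 and 4263 CPM on chow and 2686, 2023, 2563, 2557 and 1797 CPM on HFD, against 3028, 2159, 2443, 4094 and 2714 CPM and 1113, 1127, 1322, 1107 and 2030.0 CPM with saline. The chow groups were apart, and on HFD only saline replicate 5 lay within the CL range. The increases were 1.94-fold (log2 fold change 0.95, standard error 0.23, edgeR adjusted p = 0.00409) and 1.73-fold (log2 fold change 0.79, standard error 0.23, edgeR adjusted p = 0.0112). In C-3BO mice on chow *Thrsp* was 1.57-fold higher (log2 fold change 0.65, standard error 0.23, edgeR adjusted p = 0.0286), but the call did not hold without chow control replicate 1, 2, 4 or 5 or chow C-3BO replicate 3 (edgeR adjusted p 0.0561 to 0.0976). On HFD its log2 fold change was 0.37 (edgeR adjusted p = 0.22) and 0.74 without HFD control replicate 4 (edgeR adjusted p = 0.00505).

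*Srebf1* in chow C-3BO mice was 662, 744, 837, 674 and 1029 CPM, 1.52-fold above chow control mice (log2 fold change 0.60, standard error 0.21, edgeR adjusted p = 0.0244), of which replicate 3 lay within the C-3BO range. Without chow control replicate 1 or 2 or chow C-3BO replicate 5 the call was lost (edgeR adjusted p 0.0641 to 0.0857), and without chow control replicate 1 only 1 of the 3 genes, *Acacb*, remained past the threshold. *Me1* on HFD was 1.91-fold higher in C-3BO than in control mice with no overlap (log2 fold change 0.93, standard error 0.31, edgeR adjusted p = 0.0167), a call lost without HFD control replicate 5 (edgeR adjusted p = 0.0523) or HFD C-3BO replicate 4 (edgeR adjusted p = 0.0623). Its log2 fold change was 0.67 without both HFD C-3BO replicates 4 and 5 (edgeR adjusted p = 0.160). Without HFD control replicate 4, 4 genes passed on HFD (*Acacb*, *Me1*, *Fasn* and *Thrsp*), and without HFD control replicate 5 only *Acacb* did. *Mlxipl* on chow was 1.40-fold lower with CL (log2 fold change -0.49, standard error 0.16, edgeR adjusted p = 0.0382), with CL at 679.9, 659.8, 515, 511 and 678 CPM overlapping the lowest saline mouse. This call was lost without 6 of the 10 libraries in turn (chow saline replicates 1, 3 and 4 and chow CL replicates 2, 3 and 4, edgeR adjusted p of up to 0.129), and without chow CL replicate 3 only *Thrsp* passed with CL on chow.

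For the remaining enzymes the intervals were wide. The 95% interval of the *Fasn* log2 fold change was -0.17 to 1.73 for C-3BO on chow, where the 5 C-3BO mice lay above the 5 control mice, -0.69 to 1.21 for C-3BO on HFD, -0.50 to 1.39 for CL on chow and -0.39 to 1.51 for CL on HFD. On HFD the C-3BO value of *Fasn* rested on single mice: it was 0.26 with all mice, 1.22 without HFD control replicate 4 (edgeR adjusted p = 0.0227) and -0.27 without HFD C-3BO replicate 4 (edgeR adjusted p = 0.704). *Acly* had a log2 fold change of 1.06 with CL on chow, with no overlap between the groups but an edgeR adjusted p of 0.0957. For *Scd1* the interval was -0.027 to 1.45 with C-3BO on chow and -0.69 to 0.78 with CL on chow, and without chow control replicate 2 the former change was 1.13 (edgeR adjusted p = 0.0180). *Me1* with CL on HFD was 0.72 (edgeR adjusted p = 0.0908) and 0.95 without HFD saline replicate 5 (edgeR adjusted p = 0.0304). *Acaca* had a log2 fold change of -0.50 with C-3BO on HFD (edgeR adjusted p = 0.27), and of -0.90 without HFD C-3BO replicate 4 (edgeR adjusted p = 0.0464).

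Differences between these effects were tested in the same model. For the effect of C-3BO, the difference between diets passed for 0 of the 10 genes (edgeR, lowest adjusted p = 0.329, 2.09% of all tested genes passed in either direction), and for the effect of CL it passed for 0 of 10 (lowest adjusted p = 0.532, 0.0151%). Between C-3BO and CL, each against its own controls, the effect differed for 0 of 10 on chow (lowest adjusted p = 0.133, 6.24%) and 0 of 10 on HFD (lowest adjusted p = 0.640, 1.8%). At an unadjusted p under 0.05 the counts were 0, 0, 2 and 0, and DESeq2 called 0 of 10 in each of the 4. On chow the 2 genes were *Acacb* (difference of log2 fold changes 0.46) and *Srebf1* (0.66), with edgeR adjusted p of 0.133 and 0.185. Without chow saline replicate 2 the count on chow was 1. The largest differences between diets were those of *Acaca* for C-3BO (-0.98, 95% interval -1.96 to 0.0082) and *Me1* for CL (0.87, 95% interval -0.0098 to 1.75).

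For 8 of the 10 genes, all except *Acacb* and *Srebf1*, the 4 chow groups held the 4 highest of the 8 group means. Between neighbours in the order of *Acaca*, ranges overlapped except between chow control (mean 1342 CPM) and HFD saline (372 CPM). The same step separated chow control (mean 26099 CPM) from HFD CL (9091 CPM) for *Fasn*. For *Acacb*, HFD C-3BO mice (2037 CPM) ranked above chow control mice (1642 CPM), with overlapping ranges.

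Some genes that supply carbon and reducing power to the pathway also fell on HFD. The counts of this and the following lists stand beside the shares of all tested genes that were higher (15.4%, 13.5%, 7.45% and 10.9%) or lower (17.5%, 12.2%, 8.04% and 12.7%) on HFD in control, C-3BO, saline and CL mice. With C-3BO on chow and HFD and CL on chow and HFD, 15.8%, 19.3%, 9.16% and 12.7% of all tested genes were higher and 15.9%, 15.5%, 6.13% and 10.8% lower. List counts of 1 or 2 genes, and 3 of 15, are near these shares. Of 8 genes of citrate and acetyl-CoA supply, 6 were lower on HFD in control, 4 in C-3BO, 6 in saline and 4 in CL mice, with 0 higher. The citrate exporter *Slc25a1* had log2 fold changes of -1.88, -2.27, -1.87 and -2.08 (edgeR adjusted p of at most 2.84e-06), and acetyl-CoA synthetase *Acss2* of -2.51, -2.19, -1.83 and -1.93. Of 9 genes of NADPH supply, 6, 5, 5 and 5 were lower and 0 higher, led by the pentose phosphate enzymes *Tkt* (-1.70 in control mice, edgeR adjusted p = 1.52e-07) and *Pgd* (-1.52, edgeR adjusted p = 2.87e-05). CL raised 6 of 8 citrate and acetyl-CoA genes on each diet, including the pyruvate carrier subunit *Mpc2* by 0.98 on HFD (edgeR adjusted p = 0.000111), and C-3BO raised 1 of 8 on chow and 2 of 8 on HFD. In NADPH supply C-3BO raised 4 and lowered 2 of 9 on chow and raised 3 and lowered 2 on HFD, and CL raised 3 on each diet and lowered 1 on HFD.

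Of 12 genes of elongation and further desaturation, 8, 3, 4 and 3 were lower on HFD in control, C-3BO, saline and CL mice and 0, 0, 1 and 1 higher. *Elovl6*, which extends palmitate, stood at 1379.9 ± 316 CPM on chow and 269 ± 146 CPM on HFD in control mice (SD, n = 5 each), and its log2 fold change was -2.36 (edgeR adjusted p = 1.38e-07). Unlike most of the 10 genes it also rose with every treatment, by 1.01 and 2.21 in C-3BO mice on chow and HFD and by 1.05 and 1.66 with CL (edgeR adjusted p of at most 0.00861). *Elovl3*, an elongase known to be strongly induced in stimulated BAT, rose by 3.95 and 6.80 with C-3BO and 5.28 and 5.48 with CL. In these treatment comparisons 5, 6, 5 and 5 of the 12 were higher and 4, 4, 2 and 2 lower, the lower ones led by *Fads3* on chow (-1.98 with C-3BO and -1.64 with CL).

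Of 8 genes of SREBP processing, 3, 0, 0 and 0 were higher and 1, 2, 1 and 1 lower on HFD, and the lower gene shared by all 4 settings was *Insig1*, which retains SREBP in the endoplasmic reticulum, at -1.82, -0.78, -0.90 and -0.79 (edgeR adjusted p of at most 0.00975). C-3BO raised 3 of these 8 on chow and 2 on HFD, and CL 1 and 3, with 0 lower. Of 11 tested LXR and ChREBP partners and targets (the twelfth, *Pklr*, failed the count filter), 4, 4, 2 and 2 were higher and 2, 2, 1 and 4 lower on HFD, where the LXR target *Mylip* rose in control mice by 0.97 (edgeR adjusted p = 1.52e-06). C-3BO gave 4 higher and 1 lower on chow and 4 and 4 on HFD, and CL 1 and 1 on chow and 2 and 1 on HFD, with *Txnip*, a ChREBP target, at -1.29 with C-3BO and -1.08 with CL on HFD (edgeR adjusted p = 5.31e-06 and 0.000145).

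Among 9 genes that act on acetyl-CoA carboxylase or its product, 1, 1, 1 and 2 were higher and 5, 2, 1 and 2 lower on HFD. The AMPK catalytic subunit gene *Prkaa2* was lower in all 4 settings (-1.54 in control mice, edgeR adjusted p = 4.02e-08). Malonyl-CoA decarboxylase, *Mlycd*, which removes the product of the carboxylases, rose in all 4 treatment comparisons, by 0.90 and 1.03 with C-3BO and 0.67 and 0.87 with CL on chow and HFD (edgeR adjusted p of at most 0.002). In total 1, 3, 1 and 1 of these 9 were higher and 2, 1, 1 and 1 lower with C-3BO on chow, C-3BO on HFD, CL on chow and CL on HFD. Of 15 genes of glucose and insulin input, 3, 2, 0 and 0 were higher and 5, 4, 4 and 8 lower on HFD, with *Irs1* at -0.92 in saline and -1.24 in CL mice (edgeR adjusted p = 9.29e-05 and 3.85e-07), and treatment gave 3, 3, 5 and 2 higher and 2, 1, 2 and 0 lower.

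Genes of glycerolipid synthesis and fatty acid oxidation were mostly higher with treatment and had few calls with diet. Of 6 genes of glycerolipid synthesis, 1, 1, 0 and 0 were higher and 0, 0, 1 and 1 lower on HFD, while 4, 4, 3 and 5 were higher and 0 lower with treatment. *Agpat2*, which makes phosphatidic acid, rose by 1.75 and 1.78 with C-3BO and 1.46 and 1.91 with CL. Of 8 genes of fatty acid oxidation, 2, 1, 0 and 1 were higher and 0 lower on HFD, and 7, 6, 6 and 7 were higher with treatment. *Cpt2*, the inner-membrane carnitine palmitoyltransferase, rose by 1.00, 1.32, 0.79 and 1.30 (edgeR adjusted p of at most 0.000252). The difference between these lists and the 10 genes was not tested.

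**Figure D5:**
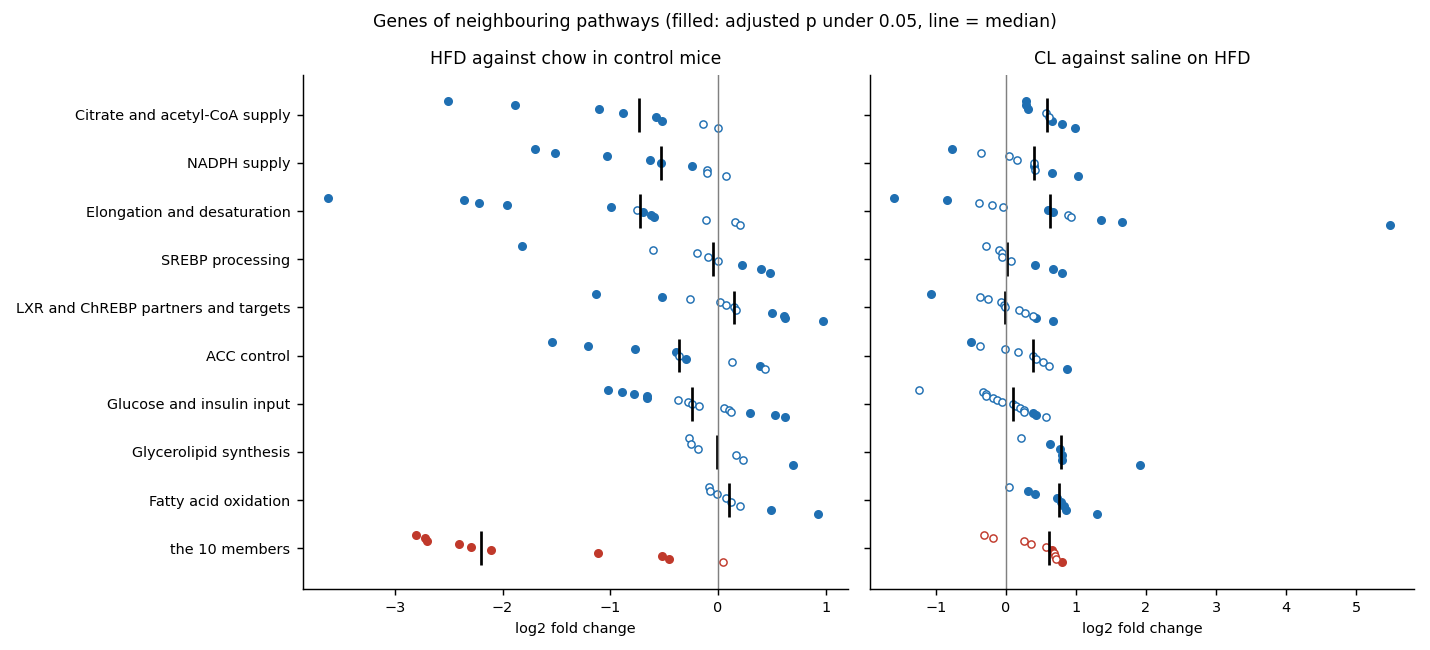
Log2 fold changes of the genes of 9 neighbouring pathway lists and of the 10 lipogenesis genes, for HFD against chow in control mice and CL against saline on HFD, with filled points at an edgeR adjusted p under 0.05 and a line at each median. The 10 genes have a median of -2.20 with diet, whereas those of glycerolipid synthesis and fatty acid oxidation lie at -0.01 and 0.10 there and at 0.78 and 0.76 with CL.

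Across the 40 libraries the 10 genes varied together to different degrees. The Pearson r of each gene's log2 CPM with the mean of the other 9 was highest for *Acly* (0.965) and *Fasn* (0.959) and lowest for *Mlxipl* (0.700) and *Srebf1* (0.529). Among the genes outside the 10 that were most like their mean were *Slc25a1* (r = 0.969), glycogen phosphorylase *Pygl* (0.963), *Tkt* (0.952) and *Acss2* (0.943). These are descriptions over libraries that share the 8 groups and their diets. *Pygl* was lower on HFD in all 4 settings, with a log2 fold change of -1.43 in control mice (edgeR adjusted p = 1.47e-05).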

How the data were processed

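RNA of BAT from 40 mice was sequenced by the authors after TruSeq library preparation. The authors mapped reads to mm9 with STAR, made HOMER tag directories and counted reads on exons of RefSeq genes with iRNA-seq, and deposited raw counts per gene with exon lengths. Versions, strand and multi-mapping settings are not given in the sources used here. Groups came from the sample labels. The members and lists were chosen with earlier results of these data known.

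Genes were filtered with filterByExpr (minimum count 10) and fitted with the quasi-likelihood model of edgeR 4.0.16 over all 40 libraries with TMM factors and 1 mean per group, and p-values were adjusted by Benjamini-Hochberg over 13277 genes (threshold 0.05). Standard errors were taken as the size of the log2 fold change over the root of its F value, and 95% intervals from the t distribution with 32 degrees of freedom. CPM values were made from the deposited counts, and log2 CPM used a prior count of 2. Ratios of paralogs were tested by exact permutation. Named genes were the 10 members, the top 3 changed genes of each list by size, and the 5 genes most like the members, of which 1 is not reported here. Promoters were RefSeq sequences of GRCm38.p6, and coordinates of genes are those of mm9, counted from 1. DESeq2 1.42.0, other scalings, other filters, a replicate block, the compared libraries alone and omission of libraries were alternatives. The model was tested on simulated counts. R 4.3.3, Python 3.11.15 and matplotlib 3.10.9 were used.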

Additional observations from a re-analysis of the deposited data

Results flagged for a closer look

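In groups of 5 mice, 6 of 80 sets of values (10 genes in 8 groups) held a mouse whose gap to the nearest of the others exceeded Dixon's 95% limit as a share of the range, where chance gives about 1 in 20. Replicate 4 of HFD control mice passed this limit for 4 genes, and was the highest of its group for 9 of the 10 genes (all except *Scd1*). It had 1698.87 CPM of *Acly* (others 335.4 to 505.8), 11598.7 CPM of *Fasn* (others 1823 to 2506), 610.743 CPM of *Mlxipl* (others 425.7 to 444.5) and 3034.05 CPM of *Thrsp* (others 1081 to 1386). Replicate 3 of chow control mice was highest for *Thrsp* at 5335.47 CPM (others 2783 to 3141), and replicate 5 of HFD saline mice at 2030.03 CPM (others 1107 to 1322).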

How the results depend on the processing

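Of the members' log2 fold changes under the alternatives, 1338 kept direction and side of the threshold, 39 lost the threshold, 23 gained it and 30 changed sign. The diet counts stayed within 1.5 times their values of 9, 8, 10 and 9 throughout. With the demand of a log2 fold change beyond 1, the treatment counts became 0 in each comparison, by construction. Library totals alone gave 1 of 10 for C-3BO on chow, and gave a median log2 fold change of all genes of 0.15 to 0.21 in the diet comparisons and of -0.15 to -0.23 in the treatment comparisons, where TMM gave -0.03 to 0.03. With library totals alone, 3512 genes were higher and 1413 lower for diet in control mice, where TMM gave 2044 and 2321. For C-3BO on chow it gave 1045 and 4127, where TMM gave 2093 and 2108. With only the compared libraries the counts were 5 for C-3BO on chow, 1 for CL on chow and 5 for CL on HFD. The last of these counts included *Mlxipl*, which was lower. Without chow saline libraries 2 and 5, added after the data were seen, CL on chow gave 1. With single libraries left out, the count ranged from 1 to 3 for C-3BO on chow, 1 to 4 for C-3BO on HFD, 1 to 3 for CL on chow and 0 to 1 for the C-3BO minus CL effect on chow. Without HFD C-3BO libraries 4 and 5, the C-3BO log2 fold change on HFD was -0.58 for *Acly*, -0.52 for *Fasn*, -0.43 for *Scd1* and -0.52 for *Scd2*. For *Acaca* it was -1.18 and passed the threshold (edgeR adjusted p = 0.0190). For *Scd1* it was -0.078 with library totals alone and -0.076 without library 4 of both HFD groups, added after the data were seen. That omission gave -0.16 for *Srebf1* with diet in control mice. For *Scd1* with CL on chow, library totals gave -0.075 and omission of chow saline libraries 2 and 5 gave -0.28. With single libraries left out, log2 fold changes that crossed 0 ranged as follows. For diet in control mice *Srebf1* spanned -0.16 to 0.27. For C-3BO on HFD, *Acly* spanned -0.32 to 0.90, *Fasn* -0.27 to 1.22, *Scd1* -0.12 to 0.35, *Scd2* -0.14 to 0.66 and *Mlxipl* -0.21 to 0.0084. For CL on chow, *Scd1* spanned -0.16 to 0.15, *Me1* -0.41 to 0.076 and *Srebf1* -0.18 to 0.058, and for CL on HFD *Acaca* spanned -0.40 to 0.084. The cause of these changes was not tested.

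Between mice that share a replicate number, the mean correlation of deviations over pairs was -0.14 to 0.17. It was highest for C-3BO against control on chow, where 3 of 5 pairs lay above 0.1 and the highest reached 0.44. The labels name no pairs, and the numbers were not taken as pairs in the main model. With replicate number as a block, 9, 9, 10 and 9 genes were lower with diet and 3, 2, 3 and 2 changed with treatment, and the only change of call was *Mlxipl* in C-3BO mice (-0.45, edgeR adjusted p = 0.0470).

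Depth limits the HFD libraries of the injected cohort most, with a lowest total of 849126 counts.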
